A study of Mus musculus with 15 samples.

Results

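The 9 genes described here are Sh2d5, Drc7, Cercam, Sstr2, Gpr146, Ak4, Rnd3, Il12a and Serpinf1. All were listed at the library's own lowest value in both libraries of the innate lymphoid cell (ILC) precursor. They are 9 of 12798 genes in the table, and all 9 were among the 12572 that passed the filter on low values. They were chosen by name for that pattern in earlier work on these data, so their low values in the ILC precursor are a description without a test. The working description of them was genes of the early innate lymphoid progenitor (EILP), but the values were not confined to that stage. The all-lymphoid progenitor (ALP) had the highest group mean for 4 of them, EILP_WT for 3 and cEILP_WT for 2. Rnd3 was the exception at the ALP stage, with 2 of 3 ALP_WT libraries at the lowest value.

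The 15 bulk RNA-seq libraries came from progenitors sorted from the bone marrow of C57BL/6 mice, whose ages the labels do not give. ALP_WT (n = 3) were Lin- Kit+ 2B4+ a4b7- Flt3high IL-7Ra+ cells of Tcf7EGFP/+ mice. sEILP_WT (n = 2) and cEILP_WT (n = 3) were a4b7+ Tcf7+ Thy1- cells of Tcf7GFP Zbtb16GFP reporter mice, split into Zbtb16low Flt3high and Zbtb16high Flt3low cells. EILP_KO (n = 2) were a4b7+ Tcf7+ Thy1- cells of Tcf7EGFPnull/- mice, and EILP_WT (n = 3) were cells of the same gate from Tcf7EGFPnull/+ mice, which carry 1 null allele. ILCP_WT (n = 2) were Thy1+ IL-7Ra+ cells of Tcf7EGFP/+ mice. The reporter strain differs between ALP_WT and both Zbtb16 fractions, so strain and stage cannot be told apart there. EILP_KO differs from ALP_WT and from both Zbtb16 fractions in strain, Tcf7 genotype and gate, which cannot be told apart either. The same holds for genotype and gate between ILCP_WT and EILP_WT. The labels do not say that the replicates of a group were separate animals, so p-values measure the spread between these samples.

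ILCs are lymphocytes without rearranged antigen receptors, and in bone marrow they arise from lymphoid progenitors through EILPs and ILC precursors. The transcription factor TCF-1, encoded by Tcf7, acts early on this path, PLZF, encoded by Zbtb16, is made by cells close to the ILC precursor, and the receptor tyrosine kinase Flt3 is lost along it. The genes described here have no single pathway in common. They encode secreted proteins (Il12a, Serpinf1), receptors (Sstr2, Gpr146), signalling proteins inside the cell (Sh2d5, Rnd3), an enzyme of nucleotide balance (Ak4), a protein of motile cilia (Drc7) and an adhesion protein (Cercam).

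The unit was inferred from the values, which sum to about the same total in every library on the linear scale and share their quartiles. They are read here as log2 CPM (read counts scaled to a common library total), quantile-normalized by the authors, so every library has the same overall distribution and its own lowest value, between -4.83 and -4.41. A gene at that value is called listed at the lowest value, since the depth of each library is unknown without counts and the limit of detection cannot be worked out. ILCP_WT had 2124 and 2224 genes there, and the other 13 libraries had 747 to 2575. Tcf7 was at 6.97 and 7.65 in EILP_KO libraries and between 9.89 and 11.14 in EILP_WT libraries, lower in the null cells but not at the bottom of the table; the sources used here do not say which exons the null alleles lack. Thy1, a surface protein of the ILC precursor gate, averaged 4.92 in ILCP_WT, and 8 of 8 ILC progenitor markers were higher in both Zbtb16 fractions than in ALP_WT by the limma test described below. Of these markers, Tcf7, Zbtb16, Itga4 and Itgb7 belong to the sort gates, so their differences follow at least in part from the sorting. The rest, Id2, Tox, Gata3 and Nfil3, are not gate genes.

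All 9 genes were listed at the lowest value in ILCP_WT, which is -4.55 in replicate 1 and -4.54 in replicate 2. Of the 12572 genes tested, 9.5% were at the lowest value in both ILCP_WT libraries, and 0.541% were also above the lowest value in all 13 other libraries, a group of 68 genes that includes 7 of the 9. The exceptions were Sstr2, listed at the lowest value in EILP_KO replicate 2 and EILP_WT replicate 1, and Rnd3, listed there in ALP_WT replicates 1 and 2. Over the 13 other libraries the members averaged between 2.64 for Rnd3 and 6.57 for Sh2d5. Among the 5900 genes with an average in that range, 84 (1.42%) were at the lowest value in both ILCP_WT libraries. The same count made for EILP_KO, which also has 2 libraries, gave 13 of 5899 genes (0.220%), and for sEILP_WT it gave 1 of 5872 (0.0170%). These shares describe the table and were not tested.

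**Figure D1:**
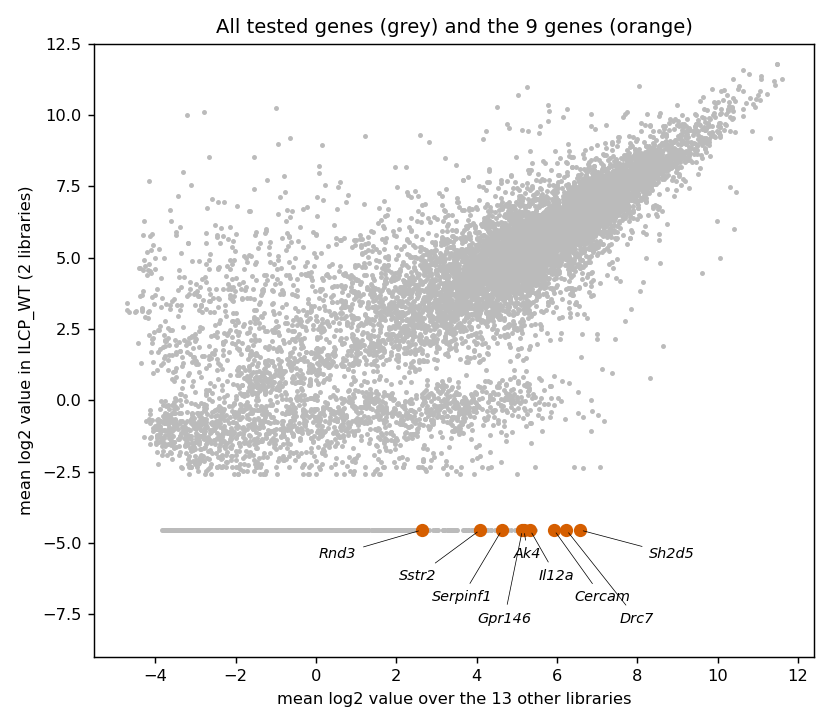
Each tested gene is a grey point, with its mean log2 value over the 13 libraries outside ILCP_WT on the horizontal axis and its mean over the 2 ILCP_WT libraries on the vertical axis. The 9 genes, in colour and named, all lie on the row of lowest values at the bottom of ILCP_WT, with means outside ILCP_WT from 2.64 to 6.57.

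ILCP_WT minus EILP_WT differences were -10.85 for Cercam, the most negative of all tested genes, -10.37 for Sh2d5 and -10.30 for Rnd3. Drc7 stood at -10.25, Gpr146 at -10.12, Serpinf1 at -9.53, Ak4 at -9.33 and Il12a at -8.39. Sstr2 had the smallest of these differences, -6.10, since 1 EILP_WT library was itself at the lowest value. The median over the 9 was -10.12, against -0.04 over all tested genes. ILCP_WT minus cEILP_WT differences gave another order, with Sstr2 second of all genes at -11.44 and Rnd3 at rank 307. These differences are log2 units against the lowest value of each ILCP_WT library, so no fold is given.

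Marker lists of other cells differed in both directions between ILCP_WT and EILP_WT, without a test. The summed linear level of the dendritic cell markers, 6 of 6 measured, was 486 to 510 CPM in ILCP_WT, with Siglech and Itgax listed at the lowest value, and 728 to 1797 in EILP_WT, with Siglech and Ccr9 listed there. Ccr9, at a mean of 373 CPM in ILCP_WT, made up most of the ILCP_WT sum. The 6 of 6 measured myeloid markers summed to 148 to 848 in ILCP_WT and 470 to 3867 in EILP_WT, which overlap, and 2 of them, Elane and Lyz2, had higher means in ILCP_WT. The erythroid and megakaryocyte markers, 8 of 8 measured, summed to 30.9 to 119 in ILCP_WT, with Epor, Itga2b and Gp9 at the lowest value, and 115 to 340 in EILP_WT, with Pf4 there. Mast cell and basophil markers (6 of 7 measured) summed to 90.1 to 767 in ILCP_WT and 581 to 981 in EILP_WT. Cpa3, at a mean of 632 CPM in EILP_WT and 98.0 in ILCP_WT, made up most of the EILP_WT sum. The other measured markers of that list had higher linear means in ILCP_WT. Each of these was at the lowest value in ILCP_WT replicate 2, so the higher means rest on replicate 1 alone. On the log2 scale the means of Mcpt8 and Gata2 were lower in ILCP_WT (1.49 and -0.61 against 5.19 and 0.35). Those of Ms4a2, Fcer1a and Prss34 were higher. Of the 8 stromal markers 1 was measured, Pdgfrb, at 22.0 to 33.7 in ILCP_WT and 141 to 179 in EILP_WT. T cell markers (6 of 7 measured) ran higher, at 72.7 to 81.1 in ILCP_WT and 1.42 to 66.5 in EILP_WT, with Cd8b1 at the lowest value in EILP_WT. NK markers (5 of 5 measured) summed to 167 to 246 in ILCP_WT, with Prf1 at the lowest value, and 3.04 to 243 in EILP_WT. B cell markers (2 of 6 measured) summed to 79.4 to 81.5 in ILCP_WT and 70.3 to 124 in EILP_WT, with Ebf1 at the lowest value in EILP_WT. The part of these cells in the members' values was not tested. In bulk libraries, fewer cells of a type and less RNA per cell cannot be told apart.

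RefSeq places the 9 genes on 6 chromosomes of GRCm38.p6 (mm10), at chr4:138250411-138260968 for Sh2d5, chr4:101416478-101467771 for Ak4, chr2:29845094-29882840 for Cercam and chr2:51130439-51149111 for Rnd3. Sstr2 lies at chr11:113619327-113626028, Serpinf1 at chr11:75410029-75422623, Drc7 at chr8:95055103-95078141, Gpr146 at chr5:139377697-139396415 and Il12a at chr3:68690644-68698550. Because the genes share the ILCP_WT pattern, the 250 bases before each start with a promoter entry were searched. Both strands were searched for 5 kinds of motif of lymphoid and myeloid factors. RefSeq gave 14 such windows for 8 of the genes, Sh2d5 having none in the table. For Ak4 and Cercam the windows lie inside the spans above, from chr4:101419039 and from chr2:29869244. The bases before those 2 spans were therefore not searched. Ak4 had 4 of them, some overlapping, and Gpr146 had 3, so the windows are not separate genes. Of the 14 windows, 6 held no annotated exon. The TCF-1 letters CTTTGA were in 0 of 14 windows, against 13.8% of 32817 windows of all genes. The GATA letters TGATAA or AGATAA were in 2 of 14 windows (16.6% of all), and the RUNX letters TGTGGT or TGCGGT were in 2 (18.6% of all). The E-box letters CAGCTG or CACCTG were in 5 of 14 (27.7% of all), from 3 of the 8 genes, and the PU.1 letters GAGGAA in 2 (23.3% of all). These are matches of letters, not binding sites. The windows below are shown for Il12a, which has 2 starts and whose level differed between tested groups, for Drc7, which has 1 match, and for Rnd3, which has none. Each is written 5′ to 3′ on the gene's own strand, and capitals mark the matches. In the first Il12a window a GATA match on the minus strand, TTATCA, shares 2 bases with an E-box match, CAGGTG, the capitals in the second mark RUNX and those in Drc7 mark PU.1.
Il12a, chr3:68690394-68690643, plus strand: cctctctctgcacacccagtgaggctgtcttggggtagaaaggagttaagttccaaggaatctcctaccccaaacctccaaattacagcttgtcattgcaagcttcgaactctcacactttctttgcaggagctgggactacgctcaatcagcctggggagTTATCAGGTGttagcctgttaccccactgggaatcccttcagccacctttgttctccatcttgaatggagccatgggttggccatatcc
Il12a second start, chr3:68691174-68691423, plus strand: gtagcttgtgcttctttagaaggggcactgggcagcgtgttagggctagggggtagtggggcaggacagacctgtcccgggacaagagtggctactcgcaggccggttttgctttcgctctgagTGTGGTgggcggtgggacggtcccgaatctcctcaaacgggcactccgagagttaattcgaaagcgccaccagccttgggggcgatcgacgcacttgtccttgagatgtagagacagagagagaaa
Drc7, chr8:95054853-95055102, plus strand: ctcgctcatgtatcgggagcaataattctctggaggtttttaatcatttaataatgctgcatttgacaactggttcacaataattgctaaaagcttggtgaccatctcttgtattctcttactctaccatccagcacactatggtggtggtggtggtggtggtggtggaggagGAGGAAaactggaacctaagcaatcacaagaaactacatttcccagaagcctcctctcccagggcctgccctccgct
Rnd3, chr2:51149112-51149361, minus strand: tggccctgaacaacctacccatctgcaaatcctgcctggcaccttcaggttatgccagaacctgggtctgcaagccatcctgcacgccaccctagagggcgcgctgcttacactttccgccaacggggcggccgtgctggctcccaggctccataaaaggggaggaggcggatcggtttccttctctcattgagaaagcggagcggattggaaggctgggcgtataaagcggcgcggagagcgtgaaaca

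Among the groups other than ILCP_WT and EILP_WT, 6 pairs were tested with limma over all genes: both Zbtb16 fractions and EILP_KO against ALP_WT, the fractions against each other, and EILP_KO against each fraction. The 3 comparisons against ALP_WT share its libraries. ALP_WT may itself have entered the choice of genes, since the ILCP_WT minus ALP_WT difference of Il12a ranked 4 from the most negative of all genes and its ILCP_WT minus EILP_WT difference ranked 54. Tests against ALP_WT are therefore not independent of the choice. All 15 libraries were in the fit, so ILCP_WT and EILP_WT also entered the spread behind every p. In cEILP_WT against ALP_WT, 4% of all tested genes passed an adjusted p of 0.05, 1.97% as higher and 2.03% as lower, and 2 of the 9, Il12a and Serpinf1, passed as lower. At an unadjusted p under 0.05 by limma, 3 of the 9 stood in that comparison, against 15.7% of all genes. In sEILP_WT against ALP_WT 0.803% of genes passed and 0 of the 9, with 3 of them at an unadjusted p under 0.05 by limma, against 9.13% of all genes. EILP_KO against ALP_WT had 1.33% of genes and 0 of the 9, with 5 at an unadjusted p under 0.05 by limma, against 12.4% of all genes. The other comparisons passed 0 of the 9 by limma, with backgrounds of 0% for cEILP_WT against sEILP_WT, 0.0159% for EILP_KO against sEILP_WT and 0.294% for EILP_KO against cEILP_WT. Members at an unadjusted p under 0.05 numbered 0, 1 and 1 in these, against 5.15%, 5.85% and 11.9% of all genes in the same order.

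**Figure D2:**
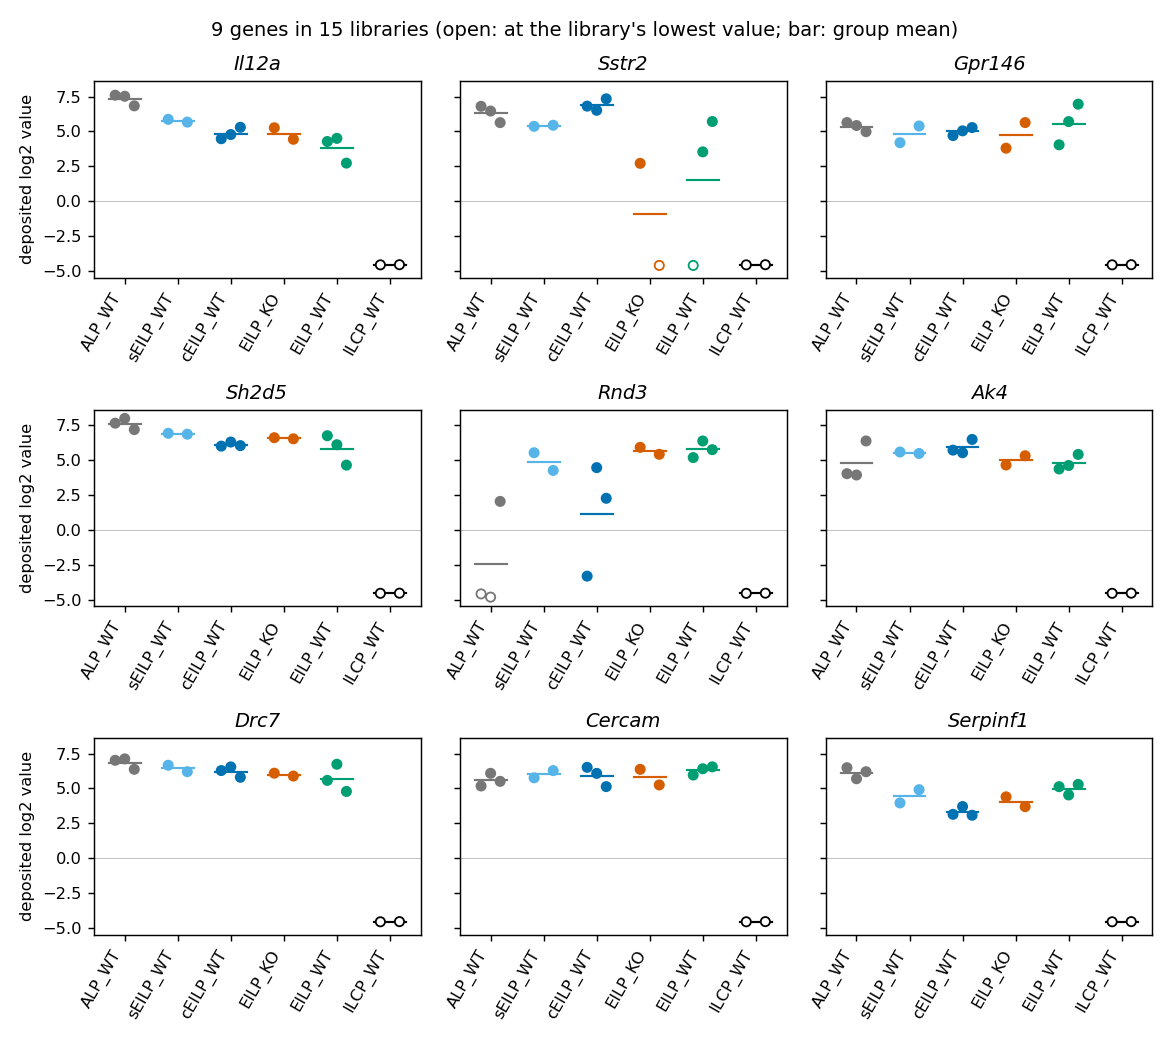
Each panel shows 1 gene, with the 6 groups on the horizontal axis and the log2 value of each library on the vertical axis; each point is a library and the bar is the group mean. All 9 genes sit at the lowest value in ILCP_WT, Il12a, Serpinf1 and Sh2d5 stand highest in ALP_WT, and Sstr2 and Rnd3 have libraries of other groups at the lowest value.

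Il12a encodes the p35 subunit shared by the cytokines IL-12 and IL-35. Its values were 7.60, 7.52 and 6.84 in ALP_WT, 5.87 and 5.67 in sEILP_WT, and 4.48, 4.78 and 5.30 in cEILP_WT. It was at 5.27 and 4.44 in EILP_KO and at 4.28, 4.51 and 2.74 in EILP_WT. ALP_WT stood above every other group without overlap, sEILP_WT came next and above the remaining groups, and cEILP_WT and EILP_KO overlapped. Il12a averaged 4.85 ± 0.42 in cEILP_WT and 7.32 ± 0.42 in ALP_WT (SD, n = 3 each). The fitted level fell by 2.61 log2 units in cEILP_WT (SE 0.59, limma adjusted p = 0.0289), which is 6.13-fold lower, with a 95% interval from -3.90 to -1.33. In sEILP_WT against ALP_WT the estimate was -1.85 (SE 0.70, limma adjusted p = 0.412), and in EILP_KO against ALP_WT it was -2.54 (SE 0.65, limma adjusted p = 0.0854); neither passed.

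Serpinf1 encodes pigment epithelium-derived factor, a secreted serpin that restrains blood vessel growth. Values of Serpinf1 were 6.48, 5.69 and 6.20 in ALP_WT, 3.96 and 4.91 in sEILP_WT, and 3.14, 3.70 and 3.08 in cEILP_WT. EILP_KO libraries were at 4.40 and 3.69, and EILP_WT libraries at 5.13, 4.53 and 5.29. ALP_WT was again above all others without overlap, and cEILP_WT was the lowest group outside ILCP_WT, its top library just above the lower EILP_KO library. Serpinf1 averaged 3.31 ± 0.34 in cEILP_WT and 6.12 ± 0.40 in ALP_WT (SD, n = 3 each). It fell by 2.89 log2 units in cEILP_WT (SE 0.66, limma adjusted p = 0.0304), 7.39-fold lower, with a 95% interval from -4.32 to -1.45. The sEILP_WT estimate against ALP_WT was -1.83 (SE 0.78, limma adjusted p = 0.488).

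Leaving out ALP_WT replicate 1 ended both calls (limma adjusted p = 0.132 for Il12a and 0.160 for Serpinf1), as did leaving out ALP_WT replicates 2 or 3 or cEILP_WT replicates 1 or 2; without cEILP_WT replicate 3 the call of Serpinf1 was lost (adjusted p = 0.112). Within batch 1 the estimates were -2.97 for Il12a and -3.06 for Serpinf1, and within batch 2 they were -1.88 and -2.87 in the same order. ALP_WT replicate 1 was the only ALP_WT library in batch 1, and cEILP_WT replicate 3 the only cEILP_WT library in batch 2. The estimates within a batch are therefore given without a test. Dendritic cell markers summed to 282 to 904 CPM in cEILP_WT, with Itgax listed at the lowest value, and to 1156 to 1672 in ALP_WT, with Batf3 listed there. Mast cell and basophil markers, 6 of 7 measured, summed to 1126 to 2014 in cEILP_WT and 15.3 to 51.7 in ALP_WT. Cpa3, at a mean of 1178 CPM in cEILP_WT, made up most of that sum and was higher (limma adjusted p = 4.77e-07). Prss34, of the same list, had a higher linear mean in cEILP_WT, 161 CPM, than in ALP_WT, 12.0 CPM. Its mean log2 value was lower in cEILP_WT, 0.12 against 1.99, as its cEILP_WT libraries ran from -4.41 to 8.91. Erythroid and megakaryocyte markers, 8 of 8 measured, summed to 169 to 350 in cEILP_WT and 11.9 to 146 in ALP_WT. Pf4 was at the lowest value in both groups. Itga2b, at a mean of 156 CPM in cEILP_WT and 1.97 in ALP_WT, made up most of the cEILP_WT sum and was higher (limma adjusted p = 0.00433). Hba-a1 and Gp9 had lower linear means in cEILP_WT, 65.5 and 0.704 CPM against 68.9 and 1.36. Gata1, Klf1, Hbb-bt and Epor had higher ones. Lymphoid progenitor markers, 6 of 6 measured, summed to 1422 to 1904 in cEILP_WT, with Rag1 at the lowest value, and 5823 to 6750 in ALP_WT. Dntt and Flt3 had linear means of 346 and 179 CPM in cEILP_WT against 3750 and 1656 in ALP_WT, and Il7r was also lower. Kit and Cd244 were higher in cEILP_WT, at 823 and 101 CPM against 385 and 86.4. Flt3, Il7r, Kit and Cd244 (2B4) belong to the sort gates, so their differences may follow in part from the sorting. Myeloid markers, at 1100 to 2350 in cEILP_WT and 1053 to 2083 in ALP_WT, overlapped. The stromal marker Pdgfrb was at 180 to 238 in cEILP_WT and 106 to 186 in ALP_WT. The part of these cells in the Il12a and Serpinf1 values was not tested.

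The IL-12 family list held 13 genes, of which 10 were tested and 9 were not members. None of those 9 was at the lowest value in both ILCP_WT libraries. Il12rb1, the receptor chain that IL-12 and IL-23 share, averaged 7.64 ± 0.17 in ILCP_WT (SD, n = 2) and 3.82 ± 2.67 in EILP_WT (SD, n = 3). Il12rb2, the chain that completes the IL-12 receptor, averaged 5.90 ± 0.12 in ILCP_WT (SD, n = 2) and 7.11 ± 0.13 in EILP_WT (SD, n = 3). In the Zbtb16 fractions Il12rb2 passed the limma test as higher than in ALP_WT, by 3.82 log2 units in sEILP_WT (adjusted p = 0.0204) and by 3.76 in cEILP_WT (adjusted p = 0.00309). Il23r, the IL-23 receptor chain, was at 4.91 and 5.09 in ILCP_WT and was listed at the lowest value in 3 of 3 EILP_WT libraries. Of 12 serpins tested, 1 was higher and 2 lower in cEILP_WT than in ALP_WT; Serpine2, an inhibitor of thrombin and plasminogen activators, was higher (limma adjusted p = 0.00615) with 2 of 3 ALP_WT libraries at the lowest value. Serpinb1a, an inhibitor of neutrophil proteases, was lower by the same test (log2 change -1.18, limma adjusted p = 0.0109), and Serpinf1 itself was the other.

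Sstr2 encodes a somatostatin receptor that signals through inhibitory G proteins. It was at 6.80, 6.46 and 5.64 in ALP_WT, 5.37 and 5.45 in sEILP_WT, and 6.82, 6.52 and 7.34 in cEILP_WT. EILP_KO gave 2.72 and the lowest value, and EILP_WT gave the lowest value, 3.54 and 5.71. Outside ILCP_WT, the libraries below a log2 value of 5 were all from EILP_KO or EILP_WT, while EILP_WT replicate 3 lay above both sEILP_WT libraries, and the values of EILP_KO and EILP_WT overlapped. Every cEILP_WT library was above every EILP_KO library. The fitted EILP_KO minus cEILP_WT difference was -7.86 (SE 2.59, limma adjusted p = 0.227) and did not pass. With 1 of 2 EILP_KO libraries at the lowest value this estimate depends on where that value lies, so no fold is given. The 2 other measured genes of the somatostatin and Gi protein list, Gnai2 and Gnai3, averaged 9.49 and 9.64 in ILCP_WT. Gnai3 passed as higher in cEILP_WT than in ALP_WT (log2 change 1.07, limma adjusted p = 0.0260) and as lower in EILP_KO than in cEILP_WT (log2 change -1.44, limma adjusted p = 0.0415).

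Gpr146 encodes an orphan G protein-coupled receptor studied in mouse liver for its effect on cholesterol. It ranged from 4.98 to 5.64 in ALP_WT, 4.20 to 5.39 in sEILP_WT and 4.71 to 5.28 in cEILP_WT. Its range was 3.80 to 5.64 in EILP_KO and 4.05 to 6.96 in EILP_WT, so the 5 groups outside ILCP_WT overlapped throughout. The cEILP_WT minus ALP_WT estimate for Gpr146 was -0.09, with a 95% interval from -1.71 to 1.54.

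Sh2d5 encodes an adaptor with an SH2 domain, a fold that binds phosphorylated tyrosines. Values were 7.63, 7.97 and 7.18 in ALP_WT, 6.91 and 6.85 in sEILP_WT, and 5.99, 6.28 and 6.03 in cEILP_WT. EILP_KO libraries were at 6.59 and 6.51, and EILP_WT libraries at 6.74, 6.09 and 4.63. The 3 stages ALP_WT, sEILP_WT and cEILP_WT stood apart in that order without overlap, with EILP_KO between the Zbtb16 fractions. The cEILP_WT minus ALP_WT estimate for Sh2d5 was -1.64 (SE 0.46, limma adjusted p = 0.0725), short of the threshold. It passed when the fit held the compared groups alone (log2 change -1.52, limma adjusted p = 0.0362). Of the 8 other SH2 adaptors measured, 3 were at the lowest value in both ILCP_WT libraries (Sh2b2, Sh2d1b1 and Sh2d4a).

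Rnd3 encodes an atypical small GTPase that stays bound to GTP and restrains the kinase ROCK1. It was at the lowest value in ALP_WT replicates 1 and 2 and at 2.03 in replicate 3. It was at 5.52 and 4.25 in sEILP_WT and at -3.32, 4.45 and 2.25 in cEILP_WT. EILP_KO libraries had 5.90 and 5.40, and EILP_WT libraries 5.17, 6.36 and 5.74. Rnd3 thus ran opposite to Il12a, Serpinf1 and Sh2d5, with every sEILP_WT and EILP_KO library above every ALP_WT library and a wide spread in cEILP_WT. No test of Rnd3 passed: the estimate was 8.01 in sEILP_WT against ALP_WT (SE 2.52, limma adjusted p = 0.291) and 8.29 in EILP_KO against ALP_WT (SE 2.33, limma adjusted p = 0.121). Without ALP_WT replicate 3 the EILP_KO estimate was 10.37 (limma adjusted p = 0.0498). No fold is given for Rnd3, as 2 of 3 ALP_WT libraries list it at their lowest value.

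Ak4 encodes an adenylate kinase of the mitochondrial matrix. It was at 4.02, 3.92 and 6.36 in ALP_WT, 5.57 and 5.46 in sEILP_WT, and 5.70, 5.52 and 6.47 in cEILP_WT. It was at 4.64 and 5.30 in EILP_KO and at 4.35, 4.60 and 5.40 in EILP_WT. ALP_WT replicate 3 stood with cEILP_WT, and the other ALP_WT libraries were below every other library outside ILCP_WT. The cEILP_WT minus ALP_WT estimate for Ak4 was 1.38 (SE 0.66, limma adjusted p = 0.345), with a 95% interval from -0.06 to 2.83. Of the 5 other adenylate kinases measured, Ak8 was at the lowest value in both ILCP_WT libraries, while Ak3, also of the mitochondrial matrix, averaged 8.03 there.

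Drc7 encodes a subunit of the dynein regulatory complex, which coordinates the beat of cilia and sperm tails. It ranged from 6.37 to 7.12 in ALP_WT, 6.20 to 6.66 in sEILP_WT, 5.80 to 6.54 in cEILP_WT, 5.89 to 6.09 in EILP_KO and 4.78 to 6.73 in EILP_WT. Neighbouring groups overlapped throughout, and the cEILP_WT minus ALP_WT estimate was -0.80 (SE 0.46, limma adjusted p = 0.457). Of the 4 other subunits measured, Drc1 and Iqcg were at the lowest value in both ILCP_WT libraries. Both were also there in 3 of 3 EILP_WT and 2 of 2 EILP_KO libraries, unlike Drc7. The ciliated cell list had 1 of 5 markers measured, Rsph1, with a mean of -4.61 in EILP_WT.

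Cercam encodes cerebral endothelial cell adhesion molecule, a protein that resembles the collagen galactosyltransferases. It ranged from 5.18 to 6.08 in ALP_WT, 5.76 to 6.28 in sEILP_WT, 5.13 to 6.51 in cEILP_WT, 5.25 to 6.37 in EILP_KO and 5.96 to 6.55 in EILP_WT. These groups overlapped, and the cEILP_WT minus ALP_WT estimate was 0.24, with a 95% interval from -0.88 to 1.37. Colgalt1, the galactosyltransferase measured beside it, averaged 6.31 ± 1.16 in ILCP_WT (SD, n = 2) and 7.65 ± 0.08 in EILP_WT (SD, n = 3). An annotated antisense gene, 2600006K01Rik, overlaps an exon of Cercam, and since the sources used here do not say that counting used strand, reads of the pair cannot be told apart. Pecam1, the 1 of 6 endothelial markers measured, summed to 204 to 296 CPM in ILCP_WT and 376 to 478 in EILP_WT.

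**Figure D3:**
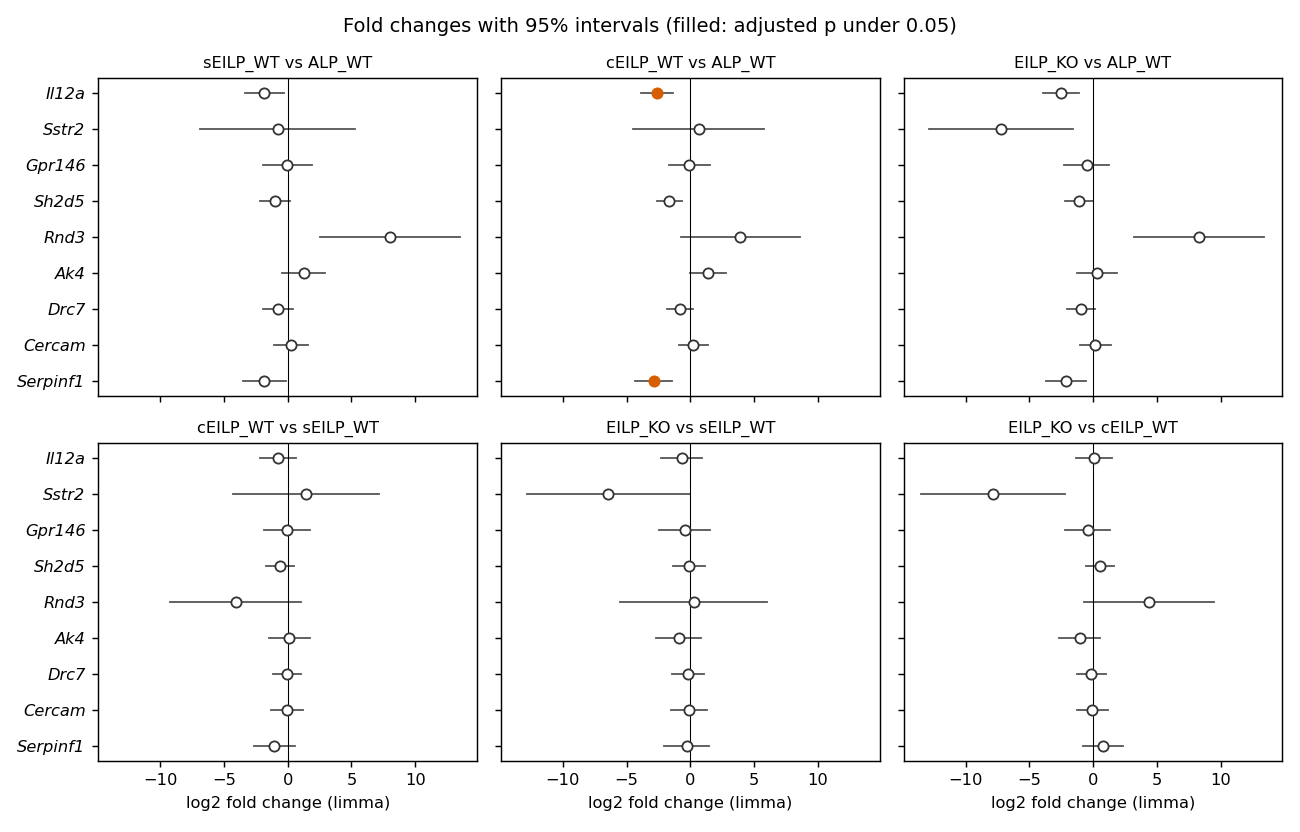
Fitted log2 fold changes of the 9 genes (horizontal axis) in the 6 comparisons between groups other than ILCP_WT and EILP_WT, 1 panel each. Bars give the 95% interval, and points are filled where the limma adjusted p was under 0.05. The filled points are Il12a (-2.61) and Serpinf1 (-2.89) in cEILP_WT against ALP_WT, and the widest bars belong to Rnd3 and Sstr2.

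EILP_KO and EILP_WT cells came from the same gate. As EILP_WT may have entered the choice of the genes, the differences between these groups are given without a test. EILP_KO minus EILP_WT was 1.01 for Il12a, 0.73 for Sh2d5, 0.29 for Drc7 and 0.19 for Ak4. It was -0.10 for Rnd3, -0.50 for Cercam, -0.85 for Gpr146, -0.94 for Serpinf1 and -2.49 for Sstr2. The median over the 9 was -0.10, against 0.03 over all tested genes.

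Because the genes were chosen for sitting at the lowest value of the ILCP_WT libraries, high correlations over all libraries, and lower ones without ILCP_WT, follow from the choice. Pearson r between members over all 15 libraries ran from 0.05 to 0.99 with a median of 0.91 over 36 pairs, and over the 13 libraries without ILCP_WT from -0.64 to 0.91 with a median of -0.04. Il12a, Sh2d5 and Drc7 went together without ILCP_WT, with r of 0.91 for Il12a and Sh2d5, 0.79 for Il12a and Drc7 and 0.77 for Sh2d5 and Drc7. Rnd3 ran opposite to Il12a, with r of -0.64. These correlations describe libraries that fall into groups and share a normalization, so no p is given.

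**Figure D4:**
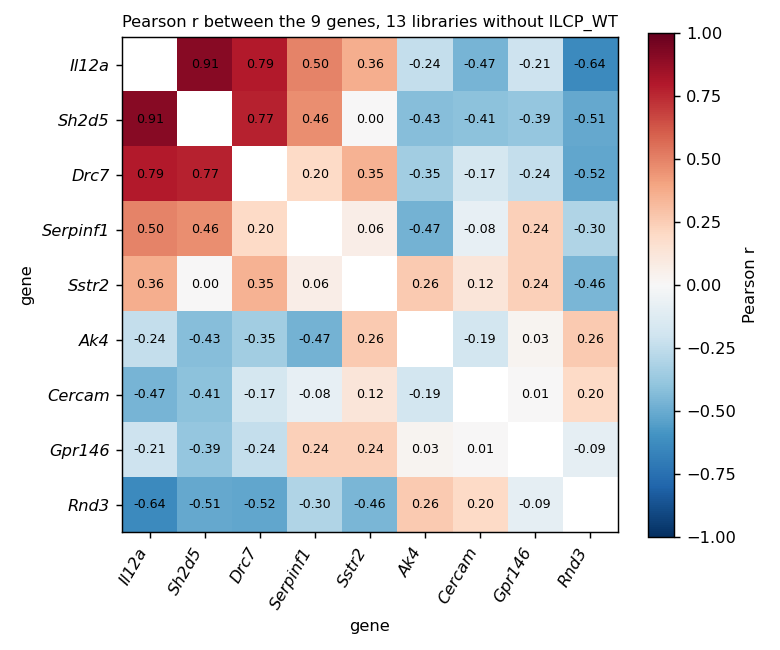
Pearson r for each pair of the 9 genes over the 13 libraries without ILCP_WT, with genes on both axes, red for positive and blue for negative values. Il12a, Sh2d5 and Drc7 form the red block (r from 0.77 to 0.91), and Rnd3 against Il12a is the deepest blue (-0.64).

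Over all 15 libraries the genes whose profile was most like the scaled mean of the 9 were Tmem205 (r = 0.980), Chst14 (0.977), Idh2 (0.977), Rab38 (0.976), Csf3r (0.973), Zfp184 (0.971), Smim5 (0.970) and Il1rap (0.969). Of these Idh2, the mitochondrial NADP-dependent isocitrate dehydrogenase, was above the lowest value in ILCP_WT, at 7.43 ± 0.12 (SD, n = 2) against group means of 9.10 to 9.44 elsewhere. Gene by gene, the nearest profile was Il21r for Sh2d5 (r = 0.990) and Il12a (0.988), Tmem205 for Drc7 (0.987), Bckdhb for Cercam (0.983) and Il1rap for Serpinf1 (0.982). It was Fam43a for Sstr2 (0.977), Prmt1 for Ak4 (0.970), Afap1 for Gpr146 (0.967) and Trim58 for Rnd3 (0.908). The 15 libraries include those of ILCP_WT, which the choice of genes used.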

How the data were processed

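Per the labels, RNA was extracted with RNeasy plus micro columns and libraries were made with the SMARTer ultra low input and Nextera XT kits. Demultiplexing with bcl2fastq 2.17, the aligner STAR 2.5.2b, the counter RSEM 1.2.23, limma and build mm10 are named in the submitters' processing notes, without their order; the annotation is not given in the sources used here. The deposited table holds log2 CPM values, quantile-normalized by the authors, a unit and normalization inferred from the values, for 12798 genes and 15 libraries; 24 columns without a name or values were not used. Quantile normalization fixes each library's distribution, so a shift of all genes cannot be seen.

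The 12572 genes that reached 0 on the log2 scale in 2 or more libraries were fitted with limma 3.58.1 in R 4.3.3. Group and batch were terms of the fit, with an intensity trend and Benjamini-Hochberg adjustment within each comparison. Batch is a number, 1 or 2, given to each library, and what it stands for is not stated here. The fit was tested on simulated data. The members and lists were chosen with earlier results of these data known. Which groups set against ILCP_WT entered that choice is not recorded, so the tests keep to comparisons without ILCP_WT and EILP_WT. ALP_WT may have entered it too. All 15 libraries were in 1 fit, so the ILCP_WT and EILP_WT values entered the estimate of spread behind every p. Named genes are the members, the nearest profiles, called genes of family lists, and gate markers. Exceptions named for their ILCP_WT values were chosen after these were seen. Promoter windows and coordinates come from RefSeq (GRCm38.p6), exons from GENCODE.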

Additional observations from a re-analysis of the deposited data

How the results depend on the processing

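The count of members changed in cEILP_WT against ALP_WT, 2 in the report, was 0 to 1 with 1 library left out at a time. No count is given for it within batch 1 or batch 2 alone, as each leaves 1 of the compared groups with 1 library. It was 3 with the compared groups alone and 3 in a fit without the ILCP_WT and EILP_WT libraries, a setting chosen after seeing the data. With the replicate number as a block it was 1, Il12a being lost at a limma adjusted p of 0.0518. Same-numbered libraries of different groups did not deviate together (33 pairs, r from -0.07 to 0.05). With 2 or 3 libraries in a group, this cannot tell whether such libraries share animals or sorts. The numbers are read here as names of samples. The estimate for Il12a ran from -3.20 to -1.88 and was called in 9 of 17 alternatives, and that for Serpinf1 ran from -3.06 to -2.71 and was called in 9 of 17. In EILP_KO against ALP_WT, 0 in the report, it was 1 with values below 0 raised to 0 (Il12a), 1 without the intensity trend (Serpinf1), 0 to 1 with 1 library left out, and 2 in the added fit (Sstr2 and Il12a). The other comparisons gave 0 members in every setting run. The ILCP_WT minus EILP_WT median of -10.12 was -5.57 with values below 0 raised to 0, -9.43 in batch 1 alone and -10.13 to -9.43 with 1 library left out. The EILP_KO minus EILP_WT median of -0.10 was 0.16 in batch 1 alone and -0.33 in batch 2 alone. It was -0.34 with cyclic loess and -0.39 to 0.15 with 1 library left out. Counts of changed genes over all genes are given for settings that left 2 or more libraries in each compared group. Against ALP_WT they ran from 27 to 113 (101 in the report's fit) in sEILP_WT, 256 to 601 (503) in cEILP_WT and 18 to 259 (167) in EILP_KO. They ran from 0 to 9 (0) in cEILP_WT and 0 to 13 (2) in EILP_KO against sEILP_WT, and 1 to 107 (37) in EILP_KO against cEILP_WT. Batch 2 alone was not run for comparisons with sEILP_WT, which has no library there. The causes of these changes were not tested. With no counts, depth cannot be weighed.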

Other observations

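Serpina12, which encodes the secreted serpin vaspin, was at 2.60 ± 0.49 (SD, n = 2) in EILP_KO and at the lowest value in 2 of 3 EILP_WT libraries. All ALP_WT, sEILP_WT, cEILP_WT and ILCP_WT libraries listed it at their lowest value. The gene was picked after its values were seen, and no test is given.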
